A study of Homo sapiens with 16 samples.

Results

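The ERBB genes described here are the 4 receptors of the epidermal growth factor family (EGFR, ERBB2, ERBB3 and ERBB4) and 5 of their ligands (EREG, BTC, TGFA, HBEGF and NRG1), 9 of 18377 genes measured. They were listed by name, and each was read from the transcript cluster (the array's unit of probes for 1 transcript) that is annotated to that symbol alone and has the highest mean signal. The tumours grew from BT474, a human breast cancer line with amplified ERBB2 (HER2) that stands here for 1 line only. The cells carried a doxycycline-inducible lentiviral vector for a control hairpin (CTRL miR, 6 tumours) or for either of 2 hairpins against SHP2 (SHP2 miR1, 7 tumours, and SHP2 miR2, 3 tumours), and were injected orthotopically into immunodeficient mice, whose strain is not named. All mice, controls included, drank doxycycline at 2 g per L from tumour formation to day 30, when tumours were removed and 100 ng of total RNA of each was put on an Affymetrix human gene array. The comparisons ask how the ERBB genes differ when SHP2 is knocked down; only RNA was measured.

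ERBB receptors are tyrosine kinases of the cell surface that pair when a ligand binds and then phosphorylate each other's tails. EGFR binds TGFA, EREG, BTC and HBEGF, and ERBB4 binds NRG1, EREG, BTC and HBEGF. ERBB3 binds neuregulins but has a weak kinase of its own, and ERBB2 has no known ligand and serves as the preferred partner of the others. SHP2, the phosphatase encoded by PTPN11, docks at adaptors of these receptors and passes their signal on to RAS and ERK.

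Values are log2 signals of the deposited table, and array medians lay between 5.21 and 5.41. PTPN11 (cluster 7958846) was 8.23 to 8.61 in the controls, 6.59 to 7.18 with SHP2 miR1 and 6.34 to 6.53 with SHP2 miR2, so that the targeted gene followed the labels in every tumour. The 7 luminal epithelial markers (KRT8, KRT18, KRT19, EPCAM, CDH1, GATA3 and FOXA1) averaged 9.68 to 10.24 in the controls, 10.14 to 10.33 with SHP2 miR1 and 10.02 to 10.22 with SHP2 miR2. The controls were not alike: a list of 5 genes (IRS4, HOXD10, LIN28B, RADX and SMARCA1) averaged 6.86 to 7.35 in control tumours 1, 3, 4 and 6. These genes had been chosen from earlier results of these data because they were high in those 4 tumours, so their split describes the tumours and is no test. The same list averaged 3.55 and 3.61 in control tumours 2 and 5 and lay between 3.39 and 3.65 in the 10 knockdown tumours. Results are therefore also given with control tumours 2 and 5 as the only controls. Arrays further fell into set A (control tumours 1 to 3, SHP2 miR1 tumours 1 to 4) and set B (the other 9). They were told apart by the mean of 5 noncoding RNAs, which was 8.19 to 8.39 in the former and 6.81 to 7.21 in the latter. These RNAs too had been chosen from earlier results of these data because they separate the sets. The labels name no batch.

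Of the 4 members that passed a test (ERBB4, TGFA, NRG1 and BTC), 3 are shown with the 250 bases before their start sites, as the promoter sequence of the genes the results turn on. The sequences come from RefSeq (GRCh38.p14), where 7 of the 9 members have a window, and lie at chr2:212538803-212539052 for ERBB4, chr2:70553827-70554076 for TGFA and chr4:74794524-74794773 for BTC, all on the minus strand. Each is written 5′ to 3′ along its gene, with matches to the searched motifs in capitals.
ERBB4: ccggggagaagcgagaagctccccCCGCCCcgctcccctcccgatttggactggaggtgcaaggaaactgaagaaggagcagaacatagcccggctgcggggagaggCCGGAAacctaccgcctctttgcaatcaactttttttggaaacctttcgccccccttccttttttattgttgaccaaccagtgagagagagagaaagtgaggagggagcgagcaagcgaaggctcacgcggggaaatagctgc
TGFA: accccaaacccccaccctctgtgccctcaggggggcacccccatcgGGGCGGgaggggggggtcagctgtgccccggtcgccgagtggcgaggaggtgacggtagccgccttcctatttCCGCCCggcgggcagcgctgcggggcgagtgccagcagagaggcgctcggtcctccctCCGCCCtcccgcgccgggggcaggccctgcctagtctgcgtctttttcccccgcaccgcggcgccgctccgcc
BTC: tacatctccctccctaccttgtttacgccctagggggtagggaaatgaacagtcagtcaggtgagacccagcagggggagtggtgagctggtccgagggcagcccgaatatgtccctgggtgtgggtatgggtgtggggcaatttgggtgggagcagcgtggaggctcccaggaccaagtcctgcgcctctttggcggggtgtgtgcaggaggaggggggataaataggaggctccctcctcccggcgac
The motifs searched on both strands were the TATA box (TATAAA, found in 10.7% of all 35116 windows of this length), the CCAAT box (CCAAT, in 32.0%), the GC box (GGGCGG, in 42.6%), an E-box (CACGTG, in 6.3%) and an ETS core (CCGGAA, in 14.5%). The ERBB4 window held 1 GC box, read on the opposite strand, and 1 ETS core, the TGFA window held 3 GC boxes, and the BTC window had no match. The bases G and C made up 57.2% of the ERBB4 window, 75.6% of the TGFA window and 62.0% of the BTC window. The other windows differed as well: HBEGF held 5 GC boxes, EGFR held 2 GC boxes, ERBB2 held 1 CCAAT box and 2 ETS cores, and EREG held 2 CCAAT boxes and 1 TATA box. No motif was found in all 7 windows.

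ERBB4, the receptor that both neuregulins and several EGF-like ligands activate and that is known for its part in mammary differentiation, was above all 6 controls in each of the 10 knockdown tumours. The log2 signal (cluster 8058627) was 6.63 at the lowest, 6.69 at the median and 6.93 at the highest in the 6 controls. With SHP2 miR1 the lowest, median and highest were 7.25, 7.36 and 7.43, and with SHP2 miR2 the 3 tumours had 7.26, 7.73 and 7.47. The gap between the highest control and the lowest knockdown tumour was larger than the SD within any group (0.114 with n = 6, 0.0644 with n = 7 and 0.236 with n = 3). Among all genes, 0.223% had all 10 knockdown tumours above all 6 controls, and ERBB4 was the only one of the 9 members to do so. The opposite, all knockdown tumours below all controls, was met by 0.239% of all genes and by 0 members. All 7 SHP2 miR1 tumours were above all controls in 0.745% of all genes, among the members again in ERBB4 alone.

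Over both hairpins ERBB4 rose by 0.70 ± 0.0791 (SE) on the log2 scale, a 1.63-fold difference (95% interval 1.45 to 1.83, limma adjusted p = 2.31e-05). The rise was 0.64 ± 0.0823 (SE, adjusted p = 0.00043) with SHP2 miR1 and 0.77 ± 0.105 (SE, adjusted p = 5.88e-05) with SHP2 miR2. The hairpins did not differ past the threshold (-0.13, 95% interval -0.34 to 0.09, adjusted p = 0.359), except with quantile normalization, where SHP2 miR1 was lower (-0.31, adjusted p = 0.0163). The control split did not run through this gene: control tumours 2 and 5 had 6.75 and 6.63, and control tumours 1, 3, 4 and 6 had 6.93, 6.67, 6.71 and 6.63. Against control tumours 2 and 5 alone the rise was 0.73 (adjusted p = 0.00398), with 0.67 (adjusted p = 0.0344) for SHP2 miR1 and 0.80 (adjusted p = 0.00238) for SHP2 miR2. In that comparison 0.272% of all genes rose over both hairpins, 0.0326% with SHP2 miR1 and 1.39% with SHP2 miR2, and 0.136% (SHP2 miR1) and 4.37% (SHP2 miR2) passed in either direction. With SHP2 miR1 the difference was 0.60 (adjusted p = 0.134) within set A and 0.67 (adjusted p = 0.199) within set B, small fits in which 10 and 1 of all genes passed.

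**Figure D1:**
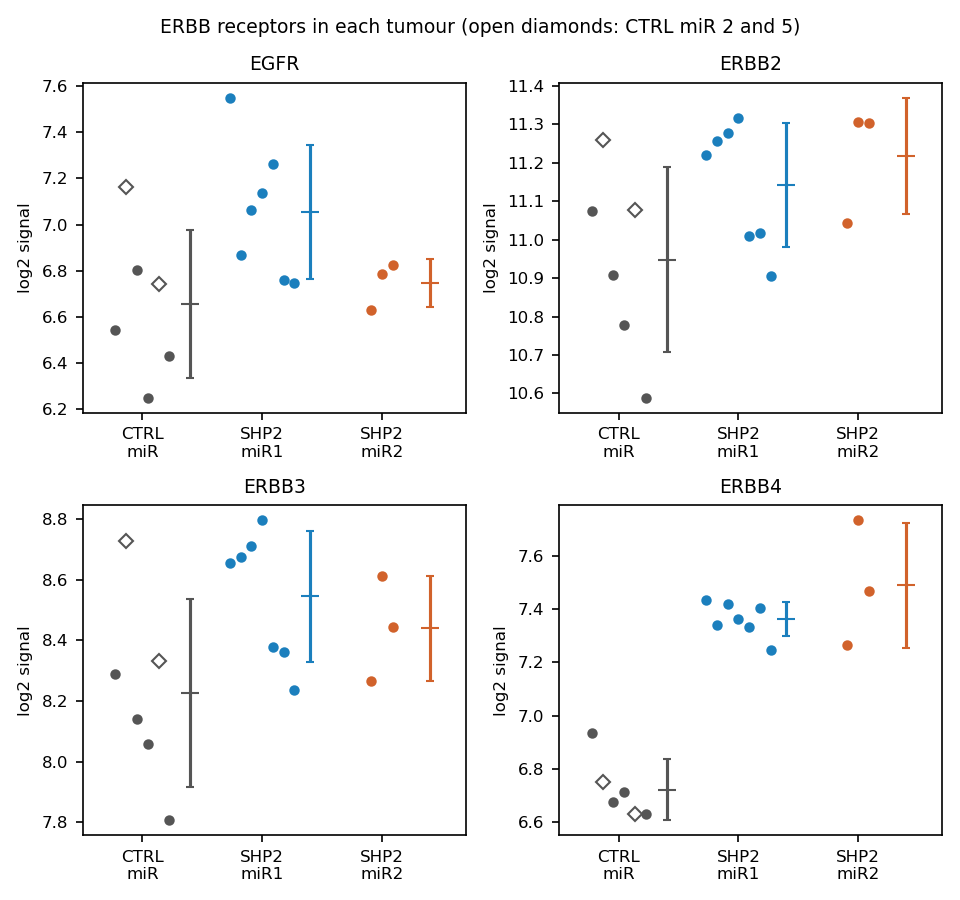
Log2 signal of the 4 ERBB receptors in each of the 16 tumours (points), with the mean and SD of each group beside them; open diamonds are control tumours 2 and 5, and each panel has its own axis. ERBB4 separates all knockdown tumours (7.25 and higher) from all controls (6.93 and lower), while the groups overlap for EGFR, ERBB2 and ERBB3.

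In these dissected tumours, fewer cells of a type and less RNA per cell cannot be told apart, and host RNA may reach the array where mouse transcripts hybridise to human probes. Some markers of host cells also rose, where 5.52% of all genes did, and so did 2 of the 7 luminal markers. The 7 fibroblast markers averaged 5.10 to 5.51 in the controls, 5.38 to 5.67 with SHP2 miR1 and 5.72 to 5.79 with SHP2 miR2, and 3 of 7 rose over both hairpins. The 7 macrophage markers averaged 4.03 to 4.47, 4.32 to 4.55 and 4.54 to 4.85, and again 3 of 7 rose over both hairpins. Of the 5 endothelial and the 5 measured skeletal muscle markers 0 passed in limma (2 and 2 at an unadjusted p below 0.05), and of the 5 adipocyte markers 1 rose. Over both hairpins 6232 of all 18377 genes had an unadjusted p below 0.05. The skeletal muscle markers spread widely, with a mean of 5.29 to 5.65 in the controls, 5.17 to 6.58 with SHP2 miR1 and 5.52 to 7.03 with SHP2 miR2. Some knockdown tumours thus lay above all controls for muscle markers. The part of host cells in the ERBB results was not tested.

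ERBB2, the amplified receptor of this line, did not pass the test in any of the 4 comparisons. Its log2 signal (cluster 8006906) ran from 10.59 over a median of 10.99 to 11.26 in the controls, and from 10.91 over 11.22 to 11.32 with SHP2 miR1. The SHP2 miR2 tumours had 11.04, 11.31 and 11.30. The groups overlapped, and the difference over both hairpins was 0.23 ± 0.102 (SE, adjusted p = 0.117; 1.18-fold, 95% interval 1.01 to 1.36). Much of the spread lay within the groups. Control tumours 2 and 5 had 11.26 and 11.08, and control tumours 1, 3, 4 and 6 had 11.08, 10.91, 10.78 and 10.59, so that tumour 5 was just above tumour 1. Among SHP2 miR1 tumours, the 4 of set A (11.22 to 11.32) did not overlap the 3 of set B (10.91 to 11.02).

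ERBB3, the partner through which ERBB2 engages PI3 kinase, also did not pass in any of the 4 comparisons. Its log2 signal (cluster 7956120) had a lowest, median and highest value of 7.81, 8.22 and 8.73 in the controls and 8.24, 8.65 and 8.80 with SHP2 miR1. The SHP2 miR2 tumours had 8.27, 8.61 and 8.44, inside the range of the controls. The difference over both hairpins was 0.27 ± 0.123 (SE, adjusted p = 0.134). Control tumours 2 and 5 had 8.73 and 8.33, above the 7.81 to 8.29 of the other 4. SHP2 miR1 tumours of set A had 8.65 to 8.80, all above those of set B with 8.24 to 8.38. ERBB2 and ERBB3 had a Pearson r of 0.94 over the 16 tumours and 0.86 over the 12 left without control tumours 1, 3, 4 and 6. These points share groups, array sets and the control split, so the r describes these arrays only.

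**Figure D2:**
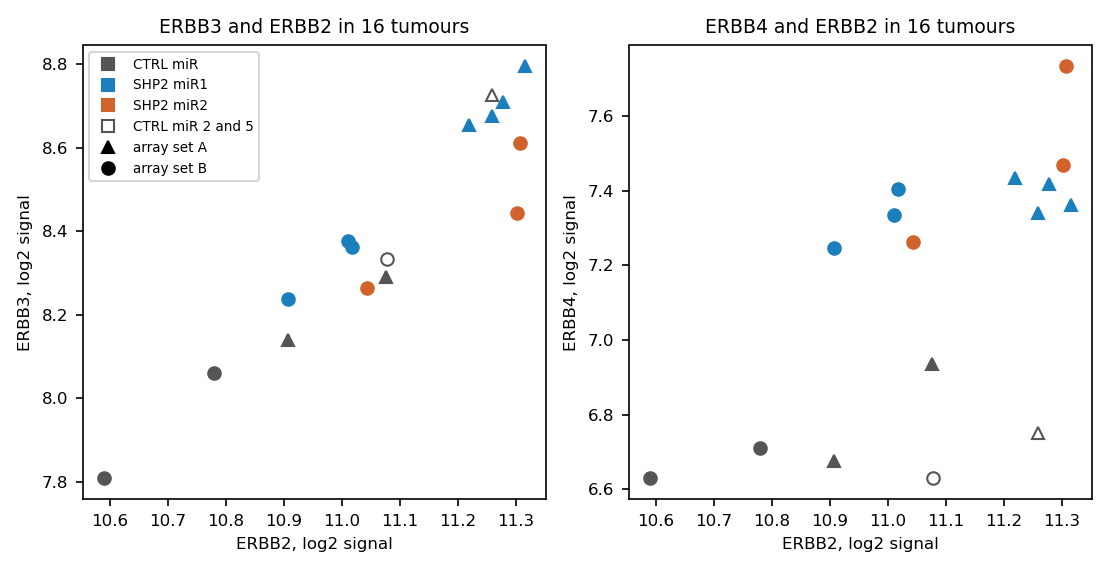
Log2 signal of ERBB3 (left) and ERBB4 (right) against ERBB2 in the 16 tumours; colour gives the group, open symbols control tumours 2 and 5, triangles array set A and circles set B. ERBB3 lies on 1 line with ERBB2 across groups (r = 0.94), while ERBB4 is 7.25 or higher in all knockdown tumours and 6.93 or lower in all controls, whatever their ERBB2.

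EGFR, the receptor for TGFA and EREG, varied most among the receptors with SHP2 miR1. Its log2 signal (cluster 8132860) was 6.25 at the lowest, 6.64 at the median and 7.16 at the highest in the controls, and 6.75, 7.07 and 7.55 with SHP2 miR1. The SHP2 miR2 tumours had 6.63, 6.79 and 6.82. The differences of 0.40 ± 0.142 (SE, adjusted p = 0.119) with SHP2 miR1 and 0.09 ± 0.18 (SE, adjusted p = 0.712) with SHP2 miR2 did not pass, and the hairpins did not differ past the threshold (0.31, 95% interval -0.06 to 0.68, adjusted p = 0.195). Control tumour 2, with 7.16, was the highest control.

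Whether ERBB2, ERBB3 and EGFR pass turned on the choice of controls and on the model. Without control tumour 2, ERBB2 (0.29, adjusted p = 0.0435) and ERBB3 (0.37, adjusted p = 0.0246) passed over both hairpins, and EGFR (0.50, adjusted p = 0.0195) and ERBB3 (0.42, adjusted p = 0.0255) with SHP2 miR1. With the array set as a block, ERBB2 (0.29, adjusted p = 0.017) and ERBB3 (0.34, adjusted p = 0.0191) passed over both hairpins, and with SHP2 miR2 they were 0.41 (adjusted p = 0.0146) and 0.39 (adjusted p = 0.0429) against 0.27 and 0.21 without the block. All SHP2 miR2 tumours and 3 of the 6 controls are in set B. With weights on the arrays EGFR (0.36, adjusted p = 0.0432) passed over both hairpins, beside ERBB2 (adjusted p = 0.0249) and ERBB3 (adjusted p = 0.0268). The lowest weights fell on control tumour 5 (0.34), SHP2 miR2 tumour 2 (0.401) and control tumour 2 (0.43). The share of all genes that passed over both hairpins was 38.3% with weights, 21.7% without control tumour 2 and 22.3% with the block. It was 18.6% with all arrays and neither weights nor block. Against control tumours 2 and 5 alone the differences were 0.01 (ERBB2), -0.04 (ERBB3) and -0.05 (EGFR), and their 95% intervals reached from -0.26 to 0.29, -0.36 to 0.29 and -0.42 to 0.32. The luminal markers moved with this split as well, since their mean was 10.17 to 10.24 for control tumours 2 and 5 against 9.68 to 10.06 for the other 4. Their part in the receptor values was not tested.

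Among all 9 members, 3 rose and 0 fell over both hairpins (ERBB4, TGFA and NRG1), against 18.6% of all genes that passed, 5.52% that rose and 13.1% that fell. The median difference of the 9 was 0.25, against 0.03 over all genes. With SHP2 miR1, 2 rose (ERBB4 and TGFA) and 0 fell, where 4.76% of all genes passed, 1.38% higher and 3.38% lower. With SHP2 miR2, 2 rose (ERBB4 and NRG1) and 1 fell (BTC), where 30% passed, 11.8% higher and 18.2% lower. These comparisons share their control tumours. With control tumours 2 and 5 alone ERBB4 was the only member that passed, with either hairpin and over both, where 0.751% of all genes passed over both hairpins in either direction, and the median of the 9 was -0.02.

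**Figure D3:**
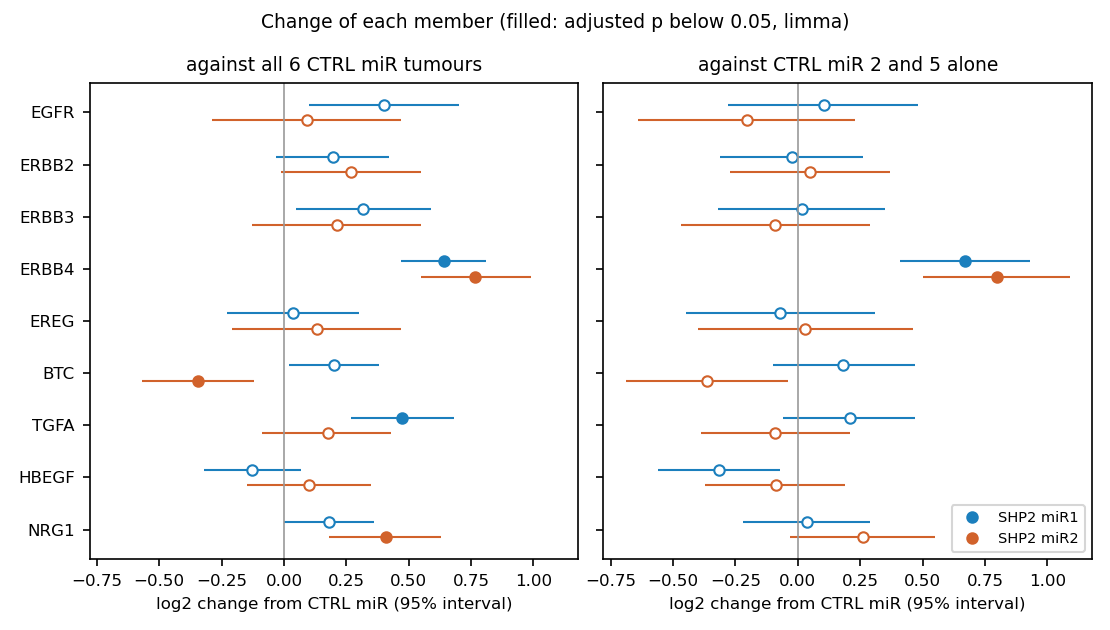
Log2 change (point) with its 95% interval (line) of the 9 members with SHP2 miR1 and SHP2 miR2, against all 6 controls (left) and against control tumours 2 and 5 alone (right); filled points have an adjusted p below 0.05 (limma). ERBB4 is filled in both panels (0.64 and 0.77, then 0.67 and 0.80), while TGFA, NRG1 and BTC are filled on the left only.

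TGFA, a ligand of EGFR made by many epithelial tumours, rose with SHP2 miR1. Its log2 signal (cluster 8052872) had a lowest, median and highest value of 4.89, 4.99 and 5.38 in the controls and 5.35, 5.60 and 5.77 with SHP2 miR1. The SHP2 miR2 tumours had 5.09, 5.42 and 5.27. The SHP2 miR1 tumours reached below the highest control. SHP2 miR2 tumour 2 was just above the highest control, and SHP2 miR2 tumours 1 and 3 lay inside the control range. The rise with SHP2 miR1 was 0.47 ± 0.098 (SE, adjusted p = 0.0133; 1.39-fold, 95% interval 1.20 to 1.60), and the rise over both hairpins was 0.32 ± 0.0942 (SE, adjusted p = 0.022). With SHP2 miR2 alone the difference was 0.17 (adjusted p = 0.279), and between the hairpins it was 0.30 (95% interval 0.04 to 0.55, adjusted p = 0.0784), which did not pass. In the fit with control tumours 2 and 5 as the only controls it passed (0.30, adjusted p = 0.0492), against 16.7% of all genes that were higher with SHP2 miR1 and 27.5% that passed there. It also passed with quantile normalization (0.42, adjusted p = 0.0284), median centring (0.41, adjusted p = 0.0237) and array weights (0.35, adjusted p = 0.0152). The same held with the replicate number as a block and without SHP2 miR2 tumour 2 (0.38, adjusted p = 0.0456). In these fits 16.3% to 39.1% of all genes passed. Within set B the hairpin difference was 0.18 (adjusted p = 0.492) and did not pass.

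The controls themselves were split for TGFA. Control tumours 2 and 5 had 5.32 and 5.38, and control tumours 1, 3, 4 and 6 had 4.99, 4.99, 4.95 and 4.89. Against control tumours 2 and 5 alone the differences were 0.21 (adjusted p = 0.861) with SHP2 miR1 and -0.09 (adjusted p = 0.764) with SHP2 miR2. The call over both hairpins was also lost without any 1 of control tumours 1, 3, 4 and 6 (0.28 to 0.31, adjusted p from 0.0577 to 0.0663) and with quantile normalization (0.27, adjusted p = 0.0563). A pattern with control tumours 2 and 5 both above the other 4 was met by 16.6% of all genes and by 4 of the 9 members (ERBB2, ERBB3, TGFA and HBEGF). The reverse, both below the other 4, was met by 19% of all genes and by 0 members. SHP2 miR1 tumours of set A were all above those of set B in 15.7% of all genes and in 3 of the 9 members (ERBB2, ERBB3 and TGFA).

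NRG1, the neuregulin that binds ERBB3 and ERBB4, had a low signal (cluster 8145736): it lay below the median of all 16 arrays and below the lower quartile of 2 of them, and the background level of the arrays is unknown. Its log2 signal was 3.68, 3.83 and 4.16 at the lowest, median and highest in the controls, and 3.86, 4.10 and 4.16 with SHP2 miR1. The SHP2 miR2 tumours, with 4.34, 4.18 and 4.32, were all above the controls, a pattern met by 6.55% of all genes. The rise was 0.41 ± 0.108 (SE, adjusted p = 0.00957) with SHP2 miR2 and 0.29 ± 0.0816 (SE, adjusted p = 0.0171) over both hairpins, and with SHP2 miR1 the difference was 0.18 (adjusted p = 0.257). The hairpins did not differ past the threshold (-0.23, 95% interval -0.45 to -0.01, adjusted p = 0.119). With quantile normalization the differences were 0.23 (adjusted p = 0.11) with SHP2 miR2 and 0.21 (adjusted p = 0.0788) over both, and against control tumours 2 and 5 alone, which had 4.16 and 3.88, they were 0.26 (adjusted p = 0.311) and 0.15 (adjusted p = 0.922). The SHP2 miR2 call was lost without SHP2 miR2 tumour 3 (0.39, adjusted p = 0.0514), and the call over both hairpins without control tumour 6 (0.26, adjusted p = 0.0554) and without control tumour 3 (0.27, adjusted p = 0.05, just above the threshold). A further NRG1 cluster (8145766) had group means of 3.37 in the controls, 3.43 with SHP2 miR1 and 3.77 with SHP2 miR2. With SHP2 miR2, 6 of 7 macrophage, 4 of 7 fibroblast and 2 of 7 luminal markers rose as well, where 11.8% of all genes rose. So did 1 of 5 endothelial, 1 of 5 adipocyte and 0 of 5 skeletal muscle markers. The macrophage mean over the 3 tumours was 4.75, against 4.41 with SHP2 miR1. The part of these cell types in the NRG1 value was not tested.

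BTC (betacellulin), a ligand of EGFR and ERBB4, differed between the hairpins. It lay below the array median in 15 of 16 arrays. Its log2 signal (cluster 8101002) was 4.82, 4.91 and 5.04 at the lowest, median and highest in the controls and 4.89, 5.12 and 5.29 with SHP2 miR1. In the SHP2 miR2 tumours it was 4.80, 4.55 and 4.36. All 7 SHP2 miR1 tumours were above all 3 SHP2 miR2 tumours, as in 13.2% of all genes, and all 3 SHP2 miR2 tumours were below all controls, as in 11.2% of all genes. The difference between SHP2 miR1 and SHP2 miR2 was 0.55 ± 0.107 (SE, adjusted p = 0.00181; 1.46-fold, 95% interval 1.25 to 1.70), the only 1 of 9 members to pass there. Of all genes 22.5% passed between the hairpins, 14.3% higher and 8.22% lower with SHP2 miR1. BTC fell with SHP2 miR2 (-0.34 ± 0.11 (SE), adjusted p = 0.0248), and its difference with SHP2 miR1 was 0.20 (adjusted p = 0.21). Since these point opposite ways, their mean over both hairpins was -0.07 (adjusted p = 0.551).

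The difference of BTC between the hairpins passed under every alternative that was run, including within set B (0.58, adjusted p = 0.0263). The fall with SHP2 miR2 did not pass without SHP2 miR2 tumour 3 (-0.24, adjusted p = 0.181), nor against control tumours 2 and 5, which had 5.04 and 4.83, where its size was kept (-0.37, adjusted p = 0.202). Nor did the fall pass within set B (-0.285, adjusted p = 0.156), which holds all SHP2 miR2 tumours. PTPN11 also differed between the hairpins, by 0.46 (adjusted p = 0.0115) in the direction of less PTPN11 with SHP2 miR2. PTPN11 was 6.59 to 7.18 in the SHP2 miR1 tumours and 6.34 to 6.53 in the SHP2 miR2 tumours. Markers of cell types differed between the hairpins too. With SHP2 miR1, 4 of 7 luminal markers were higher and 1 was lower than with SHP2 miR2, and 3 of 7 fibroblast and 3 of 7 macrophage markers were lower. The part of knockdown depth and of cell types in the BTC difference was not tested.

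**Figure D4:**
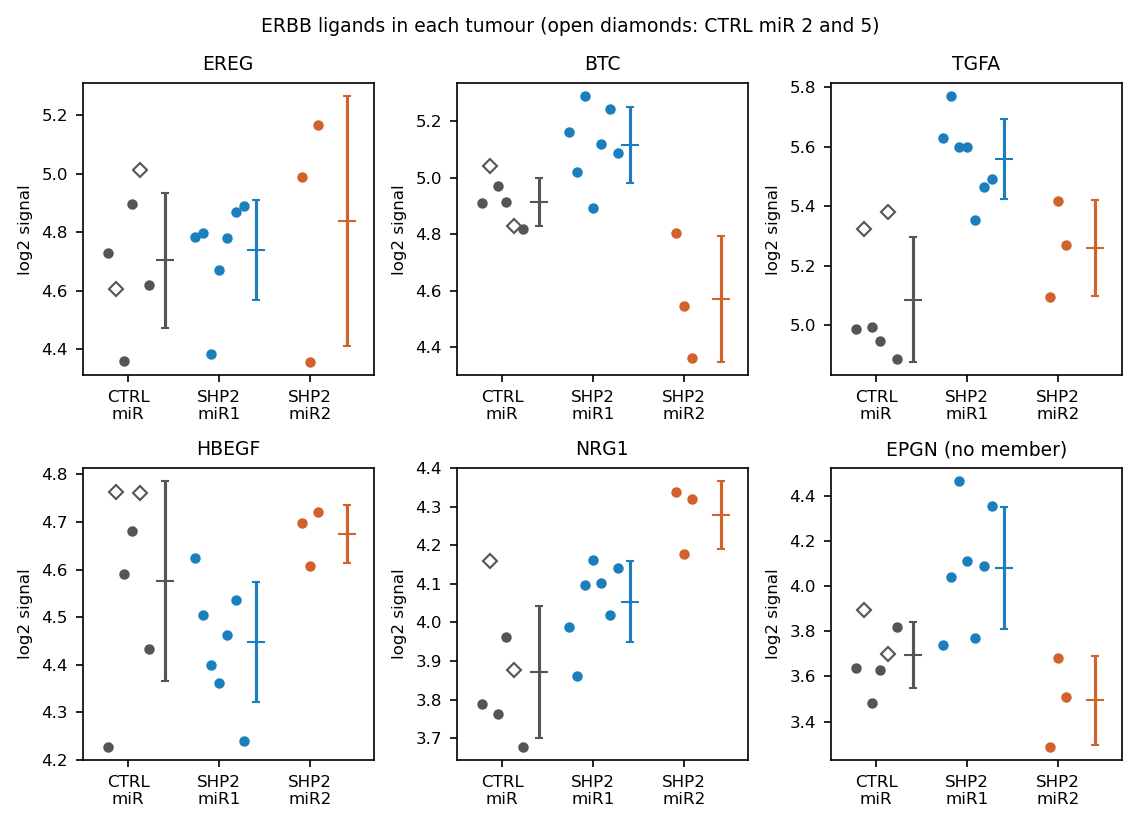
Log2 signal of the 5 ligands among the members, and of EPGN, a further ligand, in each of the 16 tumours (points), with the mean and SD of each group; open diamonds are control tumours 2 and 5, and each panel has its own axis. BTC and EPGN show the highest means with SHP2 miR1 (5.12 and 4.08) and the lowest with SHP2 miR2 (4.57 and 3.49), and NRG1 its highest with SHP2 miR2 (4.28).

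EREG (epiregulin) and HBEGF, ligands of EGFR and ERBB4, did not pass in any comparison. EREG (cluster 8095728) was 4.36, 4.67 and 5.01 at the lowest, median and highest in the controls, 4.38, 4.78 and 4.89 with SHP2 miR1, and 4.99, 4.36 and 5.17 in the SHP2 miR2 tumours. The difference over both hairpins was 0.08 (95% interval -0.17 to 0.34, adjusted p = 0.64), and its sign is not settled across settings. HBEGF (cluster 8114572) was 4.23, 4.64 and 4.76 in the controls, 4.24, 4.46 and 4.62 with SHP2 miR1, and 4.70, 4.61 and 4.72 in the SHP2 miR2 tumours, and its difference was -0.01 (95% interval -0.20 to 0.17, adjusted p = 0.921). Both control tumours 2 and 5 had 4.76 for HBEGF, the highest of all tumours, and against them SHP2 miR1 differed by -0.31 (adjusted p = 0.688). Both ligands lay below the array median in all 16 arrays, which limits what can be seen of them.

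The members differed in how far their call depended on the setting. ERBB4 had a difference over both hairpins that passed under every alternative run for it. TGFA and NRG1 passed under most of them and not with control tumours 2 and 5 alone, and ERBB2 passed under few.

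**Figure D5:**
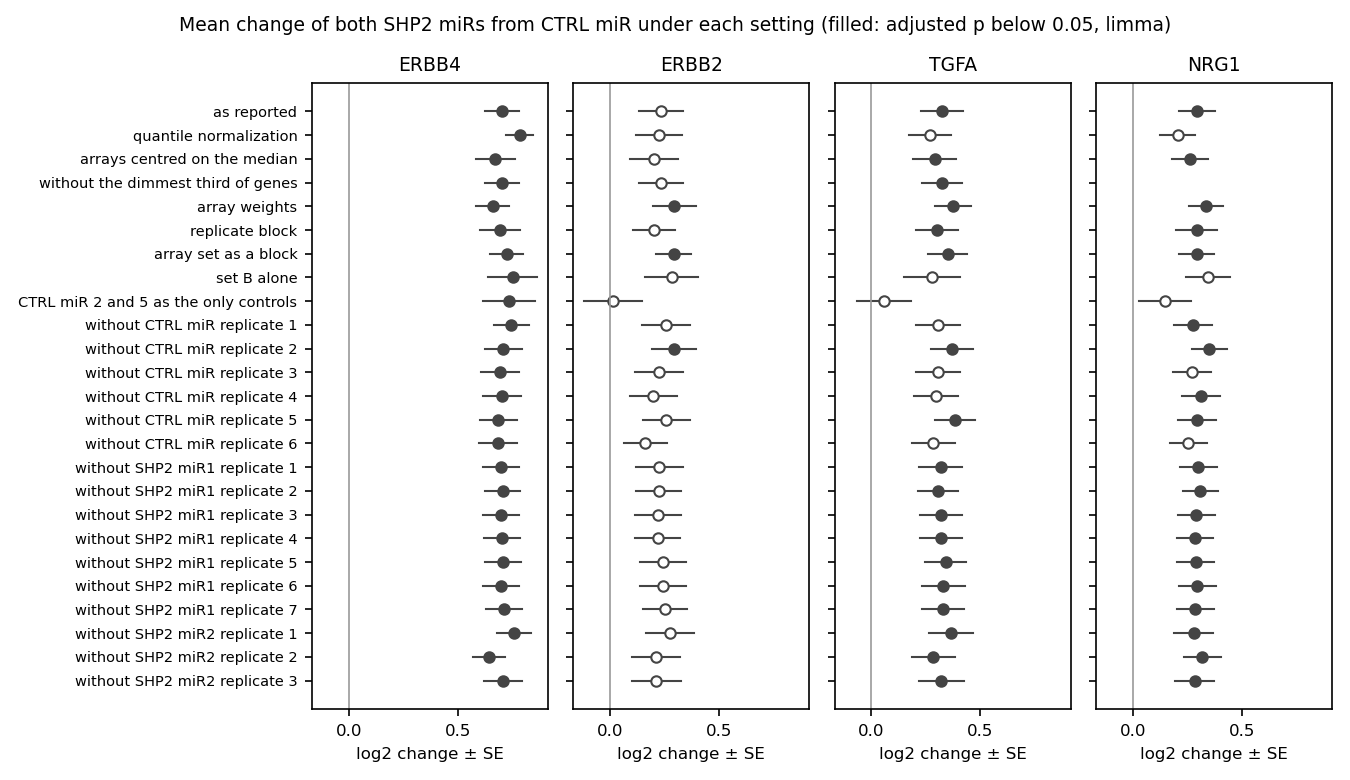
Mean log2 change of both SHP2 hairpins from the controls, with its SE, for ERBB4, ERBB2, TGFA and NRG1 under each setting (rows); filled points have an adjusted p below 0.05 (limma), and NRG1 has no value when the dimmest genes are left out. ERBB4 stays filled in every row, while TGFA (0.06), NRG1 (0.15) and ERBB2 (0.01) are open and close to 0 with control tumours 2 and 5 as the only controls.

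Other genes of the ERBB pathway were read from lists of further ligands, ligand shedding, adaptors at the receptor tail, and inhibitors and turnover. Of 34 genes 33 were measured (AREG was not analysed here). Over both hairpins 3 rose, 3 fell and 27 did not pass, where 5.52% of all genes rose and 13.1% fell. With SHP2 miR1 alone 0 passed in limma, where 4.76% of all genes did. At an unadjusted p below 0.05 there were 8, and 3375 of all 18377 genes. With SHP2 miR2, 3 rose, 6 fell and 24 did not pass, where 30% of all genes passed (11.8% higher and 18.2% lower), so that the share of the list was near that of all genes. With control tumours 2 and 5 as the only controls 1 of these falls passed, against 4.37% of all genes. Over both hairpins 0 of the 33 passed with those controls in limma (3 at an unadjusted p below 0.05), EGF among those that did not (0.15, adjusted p = 0.952). Of all 18377 genes 0.751% passed there, and 1350 had an unadjusted p below 0.05. The median difference over both hairpins was 0.05 for the 33 genes, against 0.03 over all genes.

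Among the 5 other ligands measured, EGF rose over both hairpins (0.28 ± 0.0915 (SE), adjusted p = 0.0398). Its log2 signal was 4.66 to 5.25 in the controls, 4.97 to 5.25 with SHP2 miR1, and 4.97, 5.21 and 5.32 with SHP2 miR2, so that the groups overlapped. NRG2, a neuregulin, rose with SHP2 miR2 (0.43 ± 0.124 (SE), adjusted p = 0.0158) and was lower with SHP2 miR1 than with SHP2 miR2 (-0.46, adjusted p = 0.0121). Its log2 signal was 5.07 to 5.56 in the controls, 5.06 to 5.39 with SHP2 miR1, and 5.96, 5.46 and 5.80 with SHP2 miR2. Against control tumours 2 and 5 alone the NRG2 difference with SHP2 miR2 was 0.51 (adjusted p = 0.0818). EPGN (epigen), a ligand of EGFR, was higher with SHP2 miR1 than with SHP2 miR2 (0.59 ± 0.144 (SE), adjusted p = 0.00826), and against the controls neither hairpin passed (0.39, adjusted p = 0.0598; -0.20, adjusted p = 0.296). Its signal was 3.48 to 3.89 in the controls, 3.74 to 4.47 with SHP2 miR1, and 3.29, 3.68 and 3.51 with SHP2 miR2. The lower quartiles of the SHP2 miR2 arrays were 4.01, 3.87 and 4.04, so that EPGN lay below them in all 3, and whether it exceeds background there is not known.

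None of the 6 genes of ligand shedding passed against all 6 controls with either hairpin or over both, where the differences over both hairpins ran from -0.05 to 0.21 (limma, with an unadjusted p below 0.05 in 0 of 6 over both hairpins and with SHP2 miR2, and in 1 of 6 with SHP2 miR1). They include ADAM10 and ADAM17, the proteases that release ERBB ligands from the cell surface. Of all 18377 genes, 6232 over both hairpins, 3375 with SHP2 miR1 and 8122 with SHP2 miR2 had an unadjusted p below 0.05. Of 6 adaptors, PIK3R3, a regulatory subunit of PI3 kinase that docks at ERBB3, rose over both hairpins (0.36 ± 0.0877 (SE), adjusted p = 0.00812) and with SHP2 miR2 (0.45, adjusted p = 0.00846). Its signal was 8.39 to 8.85 in the controls, 8.75 to 8.94 with SHP2 miR1, and 8.98, 9.23 and 8.81 with SHP2 miR2. Control tumours 2 and 5, with 8.85 and 8.73, were the highest controls for PIK3R3, and against them its difference over both hairpins was 0.13 (adjusted p = 0.943).

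The genes of the list of inhibitors and turnover, which need not all act on ERBB receptors in the same direction, either did not pass or were lower with SHP2 miR2, with WWP1 as the exception. Of 16 such genes, 1 rose, 6 fell and 9 did not pass with SHP2 miR2, where 11.8% of all genes rose and 18.2% fell. Their median was -0.23, against 0.023 over all genes. LRIG1 and LRIG3 are membrane proteins of the LRIG family, and LRIG1 is known to promote the loss of ERBB receptors. LRIG1 was 7.67 to 8.13 in the controls, 7.81 to 8.50 with SHP2 miR1, and 7.20, 7.51 and 7.38 with SHP2 miR2. All SHP2 miR2 tumours were below all others for LRIG1 (11.2% of all genes had them below all controls, and 13.2% below all SHP2 miR1 tumours). LRIG1 fell by 0.58 ± 0.148 (SE, adjusted p = 0.00745) against the controls and was 0.79 ± 0.144 (SE, adjusted p = 0.000979) higher with SHP2 miR1 than with SHP2 miR2. LRIG3 was 7.03 to 7.53 in the controls, 7.14 to 7.44 with SHP2 miR1, and 6.58, 6.80 and 6.59 with SHP2 miR2. It fell by 0.50 ± 0.112 (SE, adjusted p = 0.0033), and it was the 1 pathway gene whose fall with SHP2 miR2 also passed against control tumours 2 and 5 alone (-0.65, adjusted p = 0.0152).

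LRIG2 (-0.54, adjusted p = 0.0134), the suppressor of cytokine signalling SOCS5 (-0.57, adjusted p = 0.0024) and the ubiquitin ligases STUB1 (-0.54, adjusted p = 0.00318) and CBL (-0.58, adjusted p = 0.0276) fell with SHP2 miR2 too. CBL marks activated EGFR for breakdown, and STUB1 acts on ERBB2. LRIG2, SOCS5 and STUB1 also fell over both hairpins (-0.41, -0.33 and -0.36, adjusted p from 0.0106 to 0.0188). The ubiquitin ligase WWP1, which acts on ERBB4, rose over both hairpins (0.38 ± 0.0833 (SE), adjusted p = 0.00453). Its log2 signal was 8.26 to 8.74 in the controls, 8.68 to 9.01 with SHP2 miR1, and 8.98, 9.06 and 8.95 with SHP2 miR2. Against control tumours 2 and 5 alone, the differences with SHP2 miR2 that no longer passed were -0.59 for SOCS5 (adjusted p = 0.0514), -0.54 for LRIG1 (adjusted p = 0.141), -0.42 for STUB1 (adjusted p = 0.14) and -0.18 for LRIG2 (adjusted p = 0.541). The change of WWP1 over both hairpins was 0.35 there (adjusted p = 0.347), and with SHP2 miR2 that of CBL was -0.28 (adjusted p = 0.46). Between the hairpins 4 of the 16 were higher with SHP2 miR1 (LRIG1, LRIG3, SOCS5 and STUB1) and 0 were lower, against 14.3% of all genes higher and 8.22% lower. All SHP2 miR2 tumours are in set B. Control means were lower there than in set A for LRIG1 (7.79 against 8.1), CBL (6.26 against 6.7), LRIG2, LRIG3 and STUB1. For SOCS5 they were not (6.54 against 6.5). The SHP2 miR2 tumours overlapped the set B controls for CBL and LRIG2, and lay below them for LRIG1, LRIG3, SOCS5 and STUB1. With SHP2 miR1, LRIG1 averaged 8.35 in set A and 7.9 in set B. The part of the array set in these differences was not tested.

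The genes whose pattern over the 16 tumours was most like that of a member were named by Pearson r, the 3 highest for each receptor and for each ligand that passed a test. For ERBB4 they were the mucin gene MUC19 (r = 0.94), the zinc finger factor IKZF3 (0.91) and the signalling adaptor TRAF5 (0.91), with 0.90, 0.87 and 0.82 over the 12 tumours without control tumours 1, 3, 4 and 6. ERBB2 was closest to ATP9A (0.96), RGL2 (0.95) and ERBB3 (0.94), and ERBB3 to the calcium pump gene ATP2A3 (0.97), the chromatin remodeller gene CHD3 (0.96) and SLC27A3 (0.95). The 3 nearest to ERBB3 kept an r of 0.92 to 0.96 over the 12 tumours. EGFR was closest to MUC5B (0.91), USP54 (0.87) and RP1 (0.86). For the ligands, BTC was closest to SPATS2L (0.93), PKIB (0.93) and AGFG1 (0.92), TGFA to NHERF1 (0.95), BCL9L (0.93) and CD44 (0.93), and NRG1 to LINC01940 (0.89), TMEM204 (0.88) and ZNF491 (0.88). Over the 12 tumours the r of CD44 with TGFA was 0.78, and those of the 3 genes nearest to BTC were 0.93 to 0.95. All these r are descriptions of 16 arrays that share groups, sets and the control split.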

How the data were processed

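Total RNA of 16 BT474 tumours was measured on HuGene-1_0-st-v1 arrays, 1 array a tumour, with groups from the labels. The authors deposited log2 signals for each cluster of probes, made with R 2.10 and oligo 1.8 per the submitters' processing notes. How background was corrected and arrays were normalized is not given in the sources used here. The log2 scale was read from the values (1.54 to 13.63). Of 28869 clusters, 19310 carry 1 symbol; the cluster with the highest mean stood for a gene, which gave 18377 genes, none of them filtered out for a low signal.

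The 3 groups were fitted to all 16 arrays in R 4.3.3 with the lmFit and eBayes functions of limma 3.58.1 (13 residual degrees of freedom), with Benjamini-Hochberg adjustment over all genes in each of 4 contrasts and a threshold of 0.05. Rose, fell and passed refer to it. Both hairpins together means the average of the 2 single changes. The labels do not tie tumours to animals, so p-values measure the spread between these tumours. Arrays have no depth; their number limits the precision. No 2 of the 120 pairs of arrays held identical values (correlations 0.9516 to 0.9953). The fit was tested on simulated data.

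Members and gene lists, and the control split and array sets, were chosen with earlier results of these data known. Named genes were the 9 members, PTPN11, the pathway genes that passed in at least 1 contrast, and the 3 genes of highest Pearson r for each receptor and each ligand that passed. Alternatives were quantile normalization, centring on the array median, leaving out the genes of lowest mean (a share of 0.333), array weights, the replicate number or the array set as a block, each set alone, control tumours 2 and 5 alone, and leaving out each tumour. Plots were drawn with matplotlib 3.10.9.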

Additional observations from a re-analysis of the deposited data

Results flagged for a closer look

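BTC differed between the hairpins, 0.55 higher on the log2 scale with SHP2 miR1 than with SHP2 miR2 (limma adjusted p = 0.00181). All 7 SHP2 miR1 tumours were above all 3 SHP2 miR2 tumours, as in 13.2% of all genes, and 22.5% of all genes passed between the hairpins. The targeted gene PTPN11 differed between the hairpins as well, 0.46 higher with SHP2 miR1 (adjusted p = 0.0115), which means that SHP2 miR1 left more of the transcript. EREG in SHP2 miR1 tumour 3 was far below the others of its group, at 4.38 against 4.67 to 4.89 in the other 6, and the gap was 0.569 of the group's range. It was 1 of 20 groups of values looked at in this way, and chance marks about 1 in 20.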

How the results depend on the processing

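Of the 9 members' differences in the 4 comparisons, taken under each alternative, 783 kept direction and side of the threshold, 21 passed where they had not, 23 no longer passed and 34 changed sign; the cause was not tested. No called difference changed sign. ERBB4 over both hairpins and BTC between the hairpins kept their call under each alternative that gave a value; EREG, HBEGF and NRG1 have no value where the dimmest genes are left out, and set A holds no SHP2 miR2 tumour.

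The number of genes that passed was 3414 over both hairpins, 874 with SHP2 miR1, 5508 with SHP2 miR2 and 4136 between the hairpins. In that order it was 7047, 3371, 8868 and 7180 with array weights, and 138, 25, 803 and 5056 with control tumours 2 and 5 as the only controls. Within set B it was 306, 1, 2550 and 972, and within set A 10 passed with SHP2 miR1. Between the hairpins 2523 passed with the array set as a block. Leaving out 1 tumour gave 2086 to 5706, 233 to 1913, 2391 to 7739 and 1310 to 5923 genes. The largest counts came without control tumour 5 over both hairpins and with SHP2 miR2, without control tumour 2 with SHP2 miR1, and without SHP2 miR2 tumour 2 between the hairpins.

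The number of members that passed was 3, 2, 3 and 1 (18.6%, 4.76%, 30% and 22.5%, where brackets give the share of all genes that passed in the same fit). Over both hairpins it was 1 with quantile normalization (19.2%), within set B (1.67%) and with control tumours 2 and 5 alone (0.751%). It was 5 with the array set as a block (22.3%) and 6 with array weights (38.3%). With SHP2 miR1 the number was 4 with array weights (18.3%), 0 within set A (0.0544%), 0 within set B (0.00544%) and 1 with control tumours 2 and 5 alone (0.136%). At an unadjusted p under 0.05, 3 passed within set A and 4 within set B, where 2646 and 1701 of all 18377 genes did. With SHP2 miR2 the number was 5 with the array set as a block (24.9%) and 1 with control tumours 2 and 5 alone (4.37%). Between the hairpins it was 3 with quantile normalization (16.3%) or array weights (39.1%) and 2 with median centring (25.9%) or control tumours 2 and 5 alone (27.5%). Leaving out 1 tumour gave 1 to 5, 2 to 4, 1 to 3 and 1 to 2 members; the 1 with SHP2 miR2 came without SHP2 miR2 tumour 3, and the 5 and 4 without control tumour 2.

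Replicate numbers are shared between groups, and of 12 same-numbered pairs 5 deviated together (r over 0.1, range -0.42 to 0.37). Those 5 all joined a control and an SHP2 miR1 tumour of the same array set (r from 0.21 to 0.37). Tumour 4, in set B among the controls and in set A with SHP2 miR1, had r = -0.3. The part of the array set was not tested. The labels give only a replicate number, so tumours were not treated as pairs. With the replicate number as a block, 3881, 745, 7255 and 6773 genes passed, and 2 members between the hairpins (TGFA at 0.36, adjusted p = 0.0419, beside BTC). Under that block HBEGF over both hairpins was 0.008, EGFR with SHP2 miR2 -0.026 and ERBB2 between the hairpins 0.066. It changed no other call of a member.

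The other changes of sign were small. With quantile normalization EREG (-0.006) and HBEGF (-0.061) turned with SHP2 miR2, and ERBB3 (-0.079) and EREG (0.057) between the hairpins. With median centring ERBB2 (0.038) and EREG (0.013) turned between the hairpins, and with array weights HBEGF (0.023) over both. With the array set as a block ERBB3 (-0.097) and EREG (0.032) turned between the hairpins. Within set B EREG (-0.001) and BTC (0.005) turned over both hairpins, EREG (-0.005) with SHP2 miR2, and ERBB3 (-0.114) and EREG (0.008) between the hairpins. With control tumours 2 and 5 alone EGFR (-0.051), ERBB3 (-0.037) and EREG (-0.02) turned over both hairpins, ERBB2 (-0.025) and EREG (-0.07) with SHP2 miR1, and EGFR (-0.205), ERBB3 (-0.09), TGFA (-0.09) and HBEGF (-0.086) with SHP2 miR2. Leaving out 1 tumour, HBEGF over both hairpins ran from -0.084 to 0.023, and EREG from -0.034 to 0.097 with SHP2 miR1, from -0.031 to 0.375 with SHP2 miR2 and from -0.34 to 0.066 between the hairpins.

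Scaling moved the split of directions. Between the hairpins 63.5% of the genes that passed were higher with SHP2 miR1, and 84.5% with median centring, which moved the median of all genes to 0.108. With SHP2 miR2 39.3% were higher, and 23.8% with median centring.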

Other observations

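Several ERBB ligand genes are neighbours on chromosome 4, in the order MTHFD2L, EPGN, EREG, AREG, BTC and PARM1 in RefSeq (GRCh38.p14). Of the 3 ligands of this stretch that were measured, EPGN and BTC were higher with SHP2 miR1 than with SHP2 miR2 (0.59, adjusted p = 0.00826, and 0.55, adjusted p = 0.00181, limma). EREG, which lies between them, had a difference of -0.10 (95% interval -0.43 to 0.23, adjusted p = 0.658). Between the hairpins 14.3% of all genes were higher with SHP2 miR1 and 8.22% were lower.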
